A study of Mus musculus with 18 samples.

Results

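The circadian clock genes of mouse skeletal muscle were followed in nuclear and cytoplasmic RNA of isolated myofibers. The set held 10 genes of the 35527 gene names on the array (Arntl, Clock, Per1, Per2, Per3, Cry1, Cry2, Nr1d1, Nr1d2 and Dbp), chosen by name and read by every non-control probe that carries such a name. This gave 14 probes, of which Per1, Cry2, Nr1d2 and Dbp had a pair each and the other 6 genes a single probe. The genes were chosen with earlier results of these data known.

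The clock is a transcriptional feedback loop that runs in nearly every cell. ARNTL (also called BMAL1) and CLOCK form a dimer that activates genes with E-box sites, among them the Per and Cry genes, whose proteins return to the nucleus and repress that dimer, while the nuclear receptors REV-ERBα and beta (Nr1d1 and Nr1d2) repress Arntl at ROR sites. DBP, an output of the loop, activates genes through D-box sites. In muscle the clock is known for setting daily rhythms of metabolic genes.

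All samples came from female CD1 mice, 3 months old, and the labels name no treatment or allele. Fibers of 3 hindlimb muscles, the fast EDL (extensor digitorum longus) and TA (tibialis anterior) and the slower soleus, were picked singly after collagenase digestion, pooled by 5 to 10, lysed, and spun to part the nuclear pellet from the cytoplasmic supernatant. The 18 arrays fell into 6 groups, with 3 arrays for each fraction of each muscle. Replicates 1, 2 and 3 of EDL and soleus came from mice 3 and 4, mice 5 and 6, and mice 7 and 8. TA nuclei came from mice 1, 2 and 3, and TA cytoplasm from mice 5 and 1, mice 5 and 2, and mouse 9. The time of day at which the mice were killed was not given in the sources used here, so a level is a snapshot at an unknown phase.

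Signal was positive and significant on 78.9% to 89.3% of the spots of an array. The median SD between replicate arrays was 0.11 to 0.15 in the nuclear groups and 0.25 to 0.40 in the cytoplasmic groups (log2, 35528 probes with 18 values). In EDL and soleus every cytoplasm array was on slide 1 and every nuclear array on slide 2, so fraction and slide cannot be told apart in these muscles. TA nuclei lay on slide 4 with TA cytoplasm 2, TA cytoplasm 3 on slide 3, scanned the same day, and TA cytoplasm 1 on slide 1. The nuclear pellet also differed in markers of other cells. All 10 endothelial, 7 of 8 fibroblast and 6 of 7 Schwann cell markers were higher in nuclei, with summed levels of 13.15 to 13.78 against 11.62 to 13.30 in cytoplasm, 15.31 to 16.24 against 14.33 to 15.55, and 10.51 to 11.97 against 9.58 to 10.77 (log2 of the summed intensity). So were 12 of 14 muscle fiber markers (18.01 to 18.37 against 17.26 to 18.00) and 5 of 5 nuclear RNAs (12.46 to 13.83 against 9.73 to 10.99). Of 8 macrophage markers 5 were lower in nuclei and 0 higher (14.87 to 15.35 against 15.15 to 15.34), of 4 erythroid markers tested 2 were lower (12.60 to 13.62 against 13.01 to 14.74), of 4 satellite cell markers tested 2 were higher (9.12 to 12.31 against 8.43 to 12.62), and of 7 smooth muscle and pericyte markers 3 were higher and 2 lower (12.11 to 14.57 against 11.78 to 14.13). On no array was 1 of the 8 satellite cell and 1 of the 5 erythroid markers well above background. Their part in the results below was not tested, and in a bulk sample fewer nuclei of a type and less RNA per nucleus cannot be told apart.

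Which clock transcripts differ between nuclei and cytoplasm was asked first. Most clock probes gave a higher signal in nuclei, with Per3, the Per1 probe A_55_P1970033 and Clock showing the largest differences, and Nr1d1 was the exception. Over the 3 muscles, 13 of the 14 probes could be tested in limma. Of these, 11 were higher in nuclei, 1 was lower, and 1 did not pass an adjusted p of 0.05. Among all 40541 probes tested, 69.8% passed, 31.2% higher and 38.6% lower. The median difference, nuclei minus cytoplasm, was 1.08 (log2) over the 13 clock probes and -0.08 over all probes. Several marker lists, each gene by its brightest probe, had medians near that of the clock probes. They were 0.97 for Schwann cell, 0.89 for muscle fiber, 0.89 for fibroblast, 0.87 for smooth muscle and pericyte and 0.81 for endothelial markers. Satellite cell markers had 0.56, macrophage -0.45, erythroid -0.45 and nuclear RNAs 2.78. With no scaling between arrays the median of all probes was 0.42 and with 75th percentile scaling -0.30, so each difference is relative to the bulk of the probes. On 12 probes with a value on all 18 arrays, 6 had their 3 nuclear arrays above their 3 cytoplasm arrays in each of the 3 muscles, where 14.5% of all such probes did, and 0 had the reverse, where 21.4% did. These 6 were the probes of Per1 and Nr1d2, the Per3 probe and the Cry2 probe A_55_P2016540.

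The count rested on how replicates were treated. With the 3 nuclear arrays of a muscle averaged to 1 sample, 6 of the 12 calls were left, where 39.9% of all probes passed, and with slide as a random block also 6 (40.1%). Called in both were 5 probes, those of Clock (A_52_P334670), Per3 (A_51_P258493), Per1 (A_55_P2019327), Cry2 (A_55_P2016540) and Nr1d2 (A_52_P303891). How many of all probes were called under both settings was not counted. Within EDL 6 probes were higher and 1 lower in nuclei (all probes, 46.6% called, 20.0% higher and 26.5% lower), within soleus 8 and 0 (40.3%, 18.7% and 21.7%), and within TA 7 and 0 (52.7%, 19.2% and 33.5%). With the nuclear arrays averaged these calls came to 1 for EDL (7.23% of all probes), 1 for soleus (3.23%) and 2 for TA (10.0%), and with slide as a random block to 3 (15.8%), 3 (9.74%) and 7 (50.3%), each higher in nuclei. In TA, with only the 2 cytoplasm arrays scanned on the day of the nuclei, 9 of 13 probes were higher and 0 lower, where 48.6% of all probes passed.

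**Figure D1:**
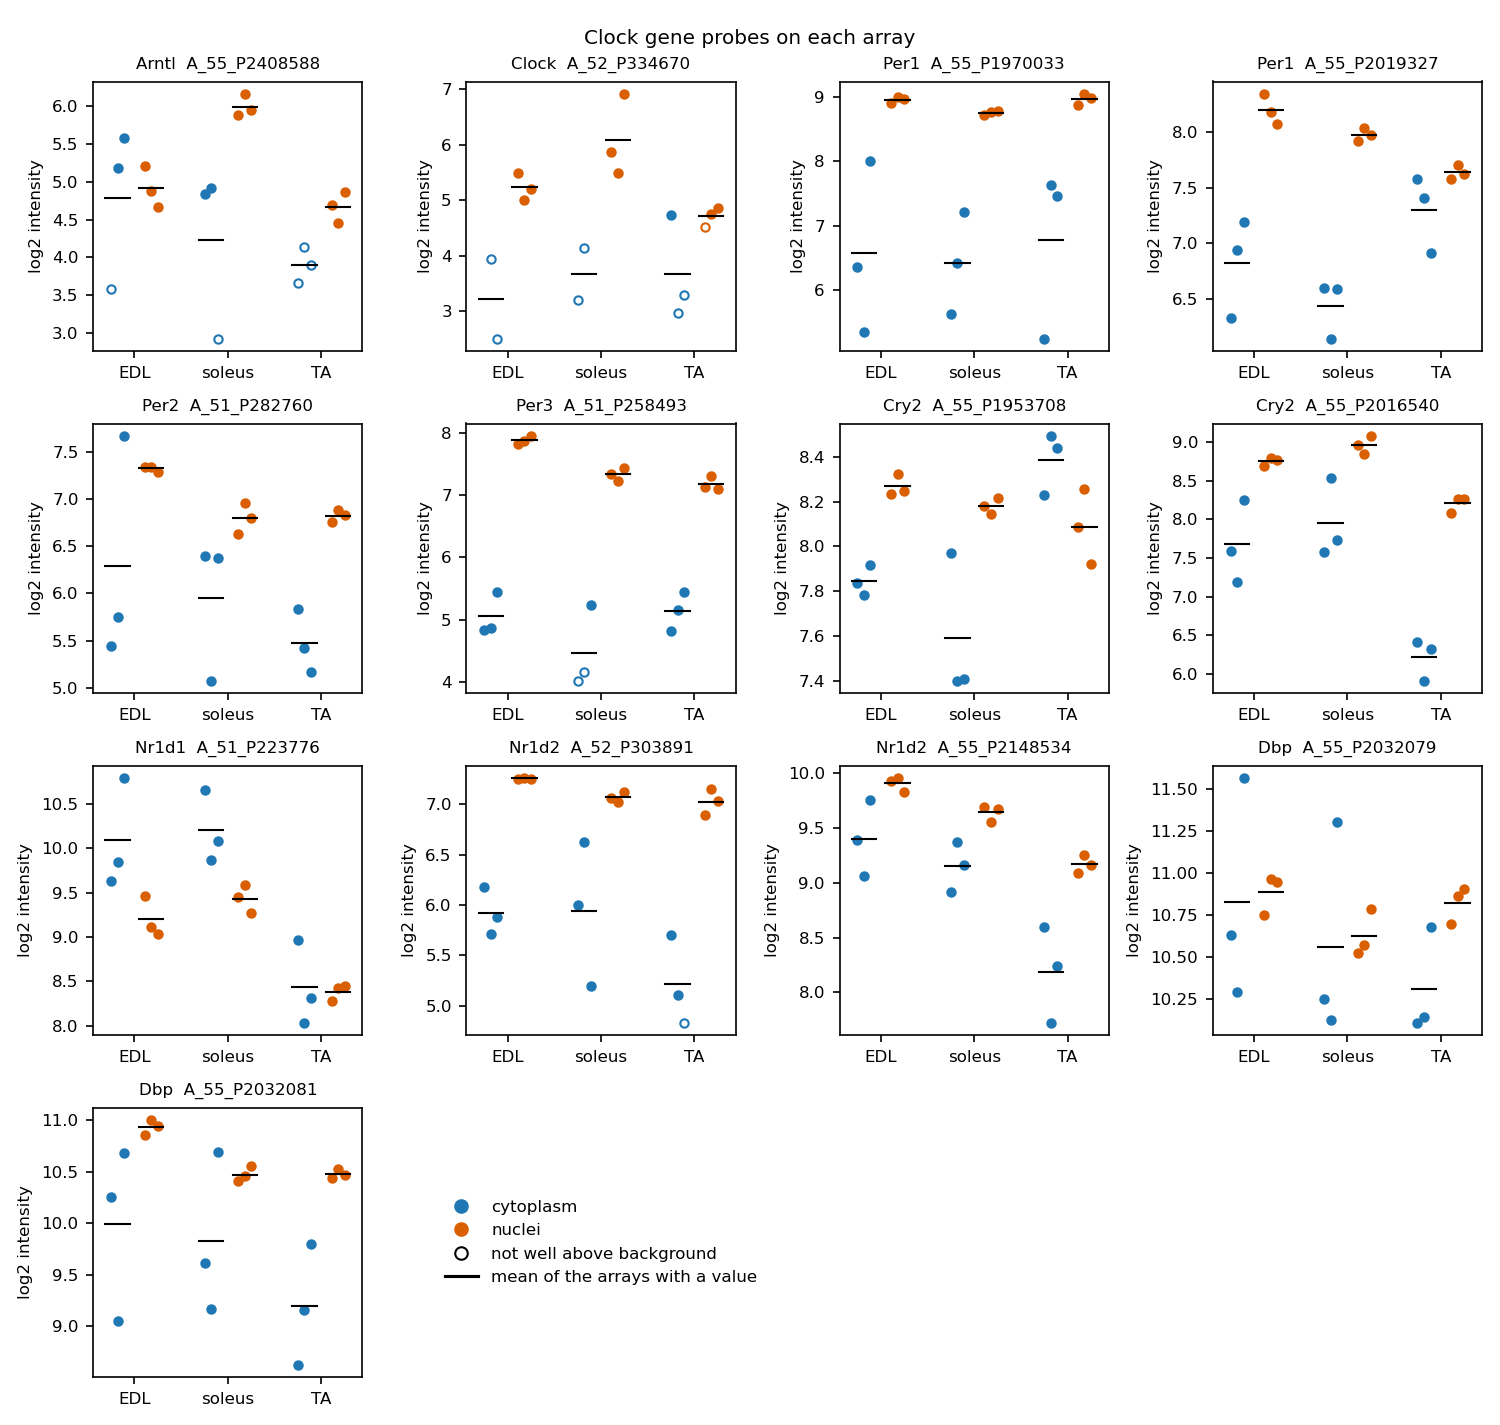
Level of 13 clock gene probes on each array (log2 quantile-normalized intensity, a panel per probe, y axes differ) in cytoplasm (blue) and nuclei (orange) of EDL, soleus and TA, with 3 arrays a group. Open circles are not well above background and lines are means of the arrays with a value. Per3 nuclei, at 7.09 to 7.95, lie above all cytoplasm arrays, at 4.02 to 5.45, while Nr1d1 nuclei lie below cytoplasm in EDL and soleus.

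**Figure D2:**
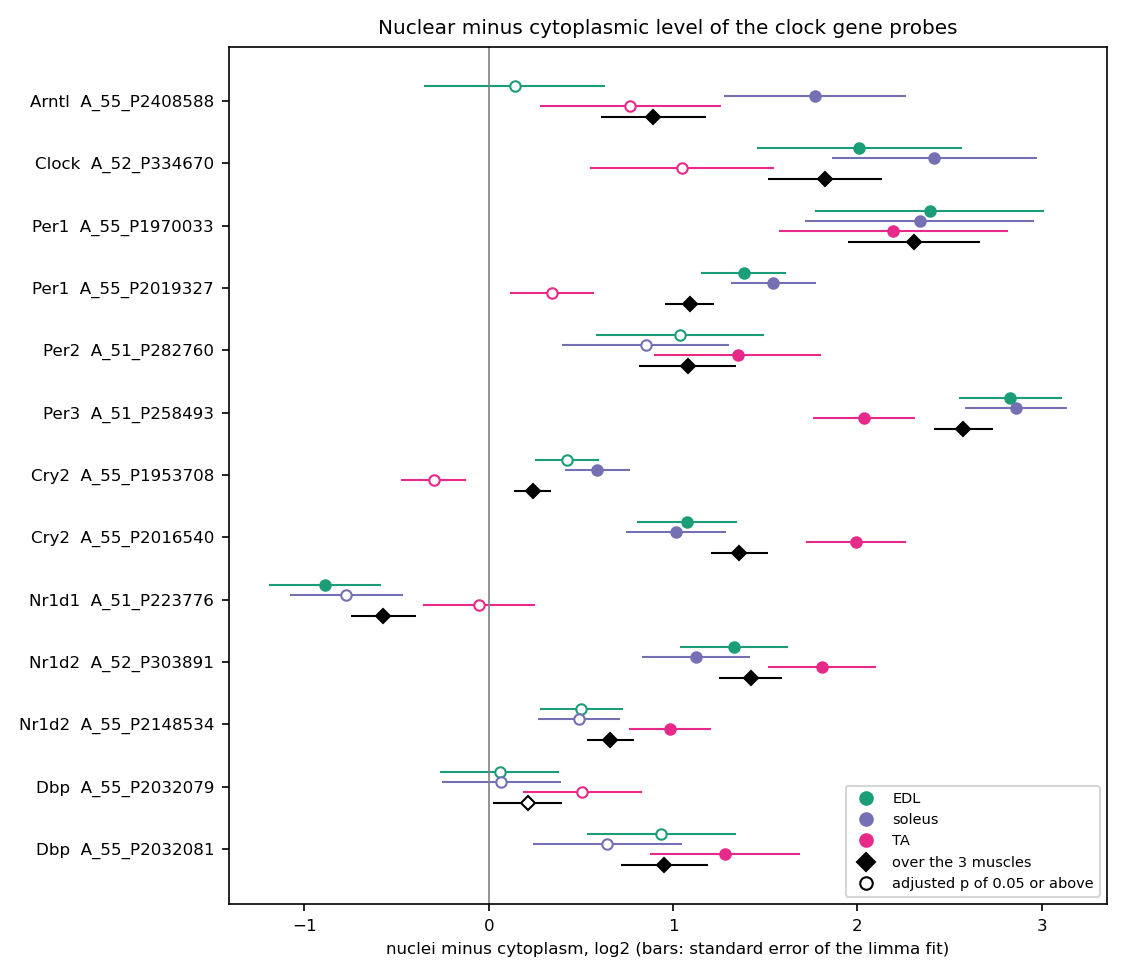
Nuclei minus cytoplasm (x axis, log2, bars are standard errors of the limma fit) for 13 clock gene probes in EDL, soleus, TA and over the 3 muscles (black diamonds). Filled symbols passed an adjusted p of 0.05. Over the 3 muscles the differences run from -0.57 for Nr1d1 to 2.58 for Per3.

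The activators came near the limit of detection. Arntl was read by probe A_55_P2408588 (mm9, chr7:120457261-120457320, plus strand). In soleus its 3 nuclear arrays read 5.88, 6.16 and 5.94 and the cytoplasm arrays 4.84, 4.92 and 2.92 (log2 intensity), with no overlap. In EDL nuclei it read 5.21, 4.88 and 4.67, inside the span of the cytoplasm at 3.58, 5.18 and 5.58. In TA nuclei the values were 4.69, 4.46 and 4.86, above the 3.66, 4.13 and 3.90 of TA cytoplasm, none of which was well above background. Over the 3 muscles Arntl was higher in nuclei by 0.89 (SE 0.28, adjusted p = 0.011), and under 75th percentile scaling by 0.46 (adjusted p = 0.107). This call was also lost with slide as a random block (0.78, adjusted p = 0.308) and with the nuclear arrays averaged (adjusted p = 0.174). The difference was 1.77 in soleus (adjusted p = 0.0102), 0.14 in EDL (adjusted p = 0.833) and 0.77 in TA (SE 0.49, adjusted p = 0.202), which did not pass. The TA value is 1.70-fold, at least that size only in that TA cytoplasm was not well above background. Without soleus cytoplasm 3, the array at 2.92, the soleus difference was 1.12 (adjusted p = 0.0554). The soleus minus EDL contrast of these differences, 1.63, did not pass (adjusted p = 0.665).

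Clock encodes the partner of ARNTL and was read by A_52_P334670 (mm9, chr5:76641377-76641436, minus strand). Its nuclear levels were 5.00 to 5.50 in EDL and 5.87, 5.49 and 6.92 in soleus, each well above background. The cytoplasm arrays read 3.95 and 2.50 in EDL and 3.21 and 4.14 in soleus, none well above background, and the fit dropped EDL cytoplasm 1 and soleus cytoplasm 3, which had no value. Over the arrays with a value, nuclei exceeded cytoplasm by 2.01 in EDL (SE 0.56, adjusted p = 0.00962), at least 4.03-fold, and by 2.42 in soleus (SE 0.56, adjusted p = 0.00399), at least 5.34-fold. In TA the nuclei read 4.52, 4.75 and 4.87 and the cytoplasm 4.74, 2.97 and 3.29. These overlapped, and the difference of 1.05 did not pass (adjusted p = 0.0925).

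Among the repressors, the Period genes encode the proteins that enter the nucleus and close the loop. Per3, read by A_51_P258493 (mm9, chr4:150379256-150379315, minus strand), had the largest nuclear difference of the set. Nuclei read 7.82, 7.87 and 7.95 for EDL, 7.34, 7.23 and 7.43 for soleus and 7.13, 7.30 and 7.09 for TA. Cytoplasm read 4.84, 4.87 and 5.45 for EDL, 4.02, 4.16 and 5.24 for soleus and 4.81, 5.16 and 5.44 for TA. Every nuclear array lay above every cytoplasm array, although only 1 of the 3 soleus cytoplasm arrays was well above background. Nuclei exceeded cytoplasm by 2.86 in soleus, 2.83 in EDL and 2.04 in TA (SE 0.28 in each), and by 2.58 over the 3 muscles (SE 0.16, adjusted p = 4.26e-09), a 5.96-fold higher level.

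Per1 had a pair of probes, A_55_P1970033 (mm9, chr11:68923364-68923423, plus strand), placed on the RefSeq mRNA, and A_55_P2019327 (mm9, chr11:68919895-68919954, plus strand), which the array file ties only to a cDNA clone. On A_55_P1970033 nuclei read 8.91, 9.00 and 8.97 for EDL, 8.72, 8.77 and 8.78 for soleus and 8.88, 9.05 and 8.99 for TA. Cytoplasm ranged far more widely, at 6.36, 5.34 and 8.00 for EDL, 5.63, 6.42 and 7.22 for soleus and 5.23, 7.63 and 7.47 for TA. The nuclear arrays thus lay between 8.72 and 9.05 across all muscles while the cytoplasm spanned 5.23 to 8.00, and the fractions did not overlap. The difference over the 3 muscles was 2.31 (SE 0.36, adjusted p = 3.76e-05). With slide as a random block it was 1.70 and did not pass (adjusted p = 0.0574). In TA it was 2.20, and 1.42 without TA cytoplasm 1, the array at 5.23 (adjusted p = 0.0459).

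On the other Per1 probe, A_55_P2019327, the difference was 1.38 in EDL (adjusted p = 0.000212) and 1.54 in soleus (adjusted p = 0.000126). In TA it was 0.34 (adjusted p = 0.222), where nuclei at 7.58, 7.71 and 7.63 lay at or just above cytoplasm at 7.58, 7.40 and 6.91. Cytoplasm read 6.33, 6.94 and 7.19 in EDL and 6.59, 6.13 and 6.59 in soleus, each below the EDL nuclei (8.35, 8.19 and 8.08) and the soleus nuclei (7.93, 8.04 and 7.98). The TA minus soleus contrast of the differences was -1.20 (adjusted p = 0.0555) and TA minus EDL -1.04 (adjusted p = 0.186), so a difference between muscles was not shown.

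Per2, read by A_51_P282760 (mm9, chr1:93313046-93313105, minus strand), read 7.34, 7.34 and 7.29 in EDL nuclei and 5.44, 5.75 and 7.67 in EDL cytoplasm, where the third array lay above the nuclei. In soleus the nuclei (6.63, 6.96 and 6.80) were above the cytoplasm (6.39, 5.07 and 6.38), and in TA (6.76, 6.88 and 6.83 against 5.83, 5.43 and 5.16) the gap was wider. The difference passed over the 3 muscles at 1.08 (SE 0.26, adjusted p = 0.00183) and in TA at 1.35 (adjusted p = 0.0209), but not in EDL (1.04, adjusted p = 0.0728) or soleus (0.85, adjusted p = 0.149). The call over the 3 muscles was lost with slide as a random block (1.20, adjusted p = 0.0902) and with the nuclear arrays averaged (adjusted p = 0.091). The TA call was lost without TA cytoplasm 2 (1.33, adjusted p = 0.0514), TA cytoplasm 3 (1.20, adjusted p = 0.0625) or TA nuclei 2 (1.32, adjusted p = 0.0518).

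Promoters of the set were looked at for the elements through which the loop is known to act on its genes. Promoter windows of RefSeq (GRCm38.p6), the 250 bases before each annotated start, were found for 9 of the 10 genes, 13 windows in all. They were searched on both strands for the E-box CACGTG, the D-box (TTACGTAA or TTATGTAA) and AGGTCA, whose matches here do not overlap. AGGTCA is only part of a ROR site, and the bases beside it were not searched. An E-box was found before a Per1 start and before Cry1, and the D-box before Per3 alone among these genes. AGGTCA was found before the same Per1 start, Nr1d2 and a Clock start. The other Per1 window held no match. Of 32851 windows of that length in the table, 6.02% held the E-box, 0.931% the D-box and 14.0% AGGTCA. A match is a string of letters in this window and not a measured site. The Per1 window with matches and the Per3 window are printed with matches in capitals. The E-box lies 166 bases and AGGTCA, printed as TGACCT of the other strand, 137 bases before that Per1 start. D-boxes lie 205 and 158 bases before the Per3 start.
Per1, chr11:69098699-69098948, plus strand: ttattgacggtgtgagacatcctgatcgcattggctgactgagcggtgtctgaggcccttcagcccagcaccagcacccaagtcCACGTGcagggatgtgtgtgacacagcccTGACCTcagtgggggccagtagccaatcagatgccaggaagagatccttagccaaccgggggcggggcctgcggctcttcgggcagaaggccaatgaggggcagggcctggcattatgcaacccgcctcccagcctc
Per3, chr4:151044666-151044915, minus strand: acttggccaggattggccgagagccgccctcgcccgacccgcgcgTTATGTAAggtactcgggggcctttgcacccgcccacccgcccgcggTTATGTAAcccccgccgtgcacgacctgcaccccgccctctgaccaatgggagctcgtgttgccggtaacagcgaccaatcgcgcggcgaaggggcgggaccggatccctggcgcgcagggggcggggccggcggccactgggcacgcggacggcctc

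Of the cryptochromes, which join PER proteins in the repressor complex, Cry1 could not be assessed. Its probe A_52_P420500 (mm9, chr10:84594731-84594790, minus strand) was not well above background on any of the 18 arrays and had a value on 1 array. Cry2 had probes for RefSeq mRNAs NM_009963 (A_55_P2016540; mm9, chr2:92243807-92243866, minus strand) and NM_001113333 (A_55_P1953708; mm9, chr2:92251417-92251476, minus strand), and they differed in pattern. On A_55_P2016540 nuclei read 8.69, 8.80 and 8.77 for EDL, 8.96, 8.85 and 9.08 for soleus and 8.08, 8.26 and 8.27 for TA. Cytoplasm read 7.59, 7.19 and 8.25 for EDL, 7.58, 8.54 and 7.73 for soleus and 6.42, 5.90 and 6.32 for TA. The fractions did not overlap in any muscle, and TA cytoplasm was the lowest group. Nuclei exceeded cytoplasm by 1.99 in TA, 1.07 in EDL and 1.02 in soleus (SE 0.27 in each), and by 1.36 over the 3 muscles (adjusted p = 1.89e-06).

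On the Cry2 probe A_55_P1953708 the TA difference had the opposite sign, short of the threshold. EDL cytoplasm, at 7.84, 7.78 and 7.92, and soleus cytoplasm, at 7.97, 7.40 and 7.41, lay below the nuclei of EDL (8.24, 8.32 and 8.25) and soleus (8.18, 8.14 and 8.22). TA cytoplasm, at 8.23, 8.49 and 8.44, lay above or within TA nuclei, at 8.09, 8.26 and 7.92. The difference was 0.42 in EDL (adjusted p = 0.059), 0.59 in soleus (adjusted p = 0.015) and -0.30 in TA (adjusted p = 0.165). The value over the 3 muscles, 0.24 (adjusted p = 0.047), did not pass with a replicate block (adjusted p = 0.0695), with slide as a random block (0.17, adjusted p = 0.516) or with the nuclear arrays averaged (adjusted p = 0.402), nor after leaving out any of 14 of the 18 arrays, with adjusted p up to 0.0977 without TA nuclei 2. The soleus call was lost without soleus cytoplasm 3 (0.50, adjusted p = 0.0622). The contrast of TA minus soleus was -0.89 (adjusted p = 0.0618).

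Over the 3 muscles the REV-ERB receptor genes differed in sign in the main fit, on a single Nr1d1 probe whose call was lost under other settings. Nr1d1 encodes REV-ERBα and was the clock gene lower in nuclei. In EDL its nuclei read 9.46, 9.11 and 9.04 and the cytoplasm 9.63, 9.85 and 10.80, with no overlap. In soleus nuclei, at 9.45, 9.58 and 9.27, also lay below cytoplasm, at 10.66, 9.87 and 10.08. In TA nuclei (8.28, 8.43 and 8.45) lay inside the range of cytoplasm (8.97, 8.03 and 8.31). The difference was -0.57 over the 3 muscles (SE 0.18, adjusted p = 0.00903), -0.89 in EDL (adjusted p = 0.0259), -0.77 in soleus (adjusted p = 0.055) and -0.05 in TA (adjusted p = 0.892).

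The direction of Nr1d1 depended on the scaling, since with no scaling between arrays its difference over the 3 muscles was 0.18 (adjusted p = 0.358), below the median of 0.42 over all probes under that setting. The call over the 3 muscles was also lost with the nuclear arrays averaged (adjusted p = 0.18) and with slide as a random block (-0.34, adjusted p = 0.452). The EDL call was lost without EDL cytoplasm 3, the array at 10.80 (-0.54, adjusted p = 0.143), without EDL nuclei 2 (-0.84, adjusted p = 0.0716) and without EDL nuclei 3 (-0.81, adjusted p = 0.0807). The Nr1d1 probe, A_51_P223776, was the single member probe whose 60 bases do not lie together in the genome. On mm9 it spans 503 bases of chr11:98630526-98631028, minus strand, so its ends fall in different exons and it matches spliced RNA, whereas each other member probe spans 60 genomic bases. It is printed in lower case with no part marked, because the position of the junction in it was not given in the sources used here.
A_51_P223776: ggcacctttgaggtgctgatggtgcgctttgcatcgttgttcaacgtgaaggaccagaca

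Nr1d2, which encodes REV-ERBβ, was higher in nuclei on each probe. On A_52_P303891 (mm9, chr14:19037253-19037312, minus strand) nuclei read 7.25, 7.26 and 7.25 for EDL, 7.06, 7.02 and 7.12 for soleus and 6.89, 7.15 and 7.03 for TA. Cytoplasm read 6.18, 5.72 and 5.88 for EDL, 6.00, 6.63 and 5.19 for soleus and 5.70, 5.11 and 4.83 for TA, the last not well above background. No cytoplasm array reached the nuclei, and the difference was 1.42 over the 3 muscles (SE 0.17, adjusted p = 2.58e-06). On A_55_P2148534 (mm9, chr14:19036568-19036627, minus strand) it was 0.66 (SE 0.13, adjusted p = 0.000312), a call lost with the nuclear arrays averaged (adjusted p = 0.0662), and it passed in TA (0.98, adjusted p = 0.00183) but not in EDL (0.50, adjusted p = 0.0768) or soleus (0.49, adjusted p = 0.0916). The RefSeq promoter window of Nr1d2 (GRCm38.p6) held AGGTCA 77 bases before the start, in capitals here. These letters are only part of the ROR sites that REV-ERB receptors are known to bind, and 14.0% of all windows held them. Binding there was not tested.
Nr1d2, chr14:18239107-18239356, minus strand: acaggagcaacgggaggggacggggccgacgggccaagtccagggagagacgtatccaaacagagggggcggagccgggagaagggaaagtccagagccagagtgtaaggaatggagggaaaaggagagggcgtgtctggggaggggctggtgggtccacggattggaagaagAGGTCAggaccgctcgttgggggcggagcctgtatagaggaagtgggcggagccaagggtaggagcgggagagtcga

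Dbp, the output factor, was read by A_55_P2032081 (mm9, chr7:52965322-52965381, plus strand) and A_55_P2032079 (mm9, chr7:52965461-52965520, plus strand), placed at bases 1426 and 1565 of the same mRNA. On A_55_P2032081 nuclei read 10.86, 11.00 and 10.94 for EDL, 10.41, 10.45 and 10.55 for soleus and 10.44, 10.53 and 10.46 for TA. Cytoplasm read 10.26, 9.05 and 10.68 for EDL, 9.62, 9.17 and 10.69 for soleus and 8.63, 9.16 and 9.80 for TA, overlapping the nuclei in soleus only. The difference was 0.95 over the 3 muscles (SE 0.23, adjusted p = 0.00195) and 1.28 in TA (adjusted p = 0.0149), where it fell to 1.00 without TA cytoplasm 1 (adjusted p = 0.0699). The call over the 3 muscles was lost with slide as a random block (0.78, adjusted p = 0.193) and with the nuclear arrays averaged (adjusted p = 0.0972). In EDL it was 0.94 (adjusted p = 0.0697), and with the replicate block it passed (adjusted p = 0.0479).

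The downstream Dbp probe, A_55_P2032079, gave 0.21 over the 3 muscles (SE 0.19, adjusted p = 0.321) and was the single tested probe of the set not called. Its nuclei read 10.75, 10.97 and 10.95 in EDL against 10.63, 10.29 and 11.57 in cytoplasm, and 10.52, 10.57 and 10.79 in soleus against 10.25, 10.13 and 11.30. In both muscles the third cytoplasm array lay above the nuclei. In TA the nuclei (10.70, 10.86 and 10.91) lay just above the cytoplasm (10.11, 10.15 and 10.68). Leaving out 1 array moved the value over the 3 muscles between 0.12 (without EDL cytoplasm 2) and 0.34 (without soleus cytoplasm 3), and with no scaling between arrays it was 0.99 (adjusted p = 0.000121).

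For the 4 genes with a pair of probes, the difference between their log2 intensities on an array was compared between fractions by an exact permutation test that exchanged fraction labels within each muscle, 8000 allocations, 2-sided, chosen after the data were seen. The probes of each pair did not move alike by this test, which was not run on other probe pairs of the array. In EDL and soleus the exchanged labels coincide with slide. The first probe named of each pair is the one with the larger nuclei minus cytoplasm difference over the 3 muscles. A signed difference that is higher in nuclei therefore follows from that order. The smallest p this test can give is 0.00025. It treats each array as an independent sample. The nuclear arrays of a muscle vary little. By the study's methods replicates were different fiber pools, and the labels name different mice for each nuclear array of a muscle. For Nr1d2 the signed difference, A_52_P303891 minus A_55_P2148534, averaged -3.22 in cytoplasm and -2.46 in nuclei, 0.76 higher. For Dbp, A_55_P2032081 minus A_55_P2032079 averaged -0.90 and -0.15, 0.74 higher in nuclei (permutation p = 0.00025 and, adjusted over the 4 genes, 0.0005 for each of these genes). For Per1, A_55_P1970033 minus A_55_P2019327 averaged -0.26 in cytoplasm and 0.96 in nuclei, 1.22 higher (permutation p = 0.00125, adjusted 0.00167). For Cry2, A_55_P2016540 minus A_55_P1953708 averaged -0.66 and 0.46, 1.12 higher in nuclei (permutation p = 0.00325, adjusted 0.00325). The signed Dbp difference lay between -0.44 and 0.10 on the 9 nuclear arrays and between -1.48 and -0.37 on the 9 cytoplasm arrays, and was higher in nuclei than in cytoplasm in each muscle. The rise of the signed Cry2 difference from cytoplasm to nuclei was 2.29 in TA, against 0.65 in EDL and 0.43 in soleus. No member probe shared 30 or more bases with another probe on the array.

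**Figure D3:**
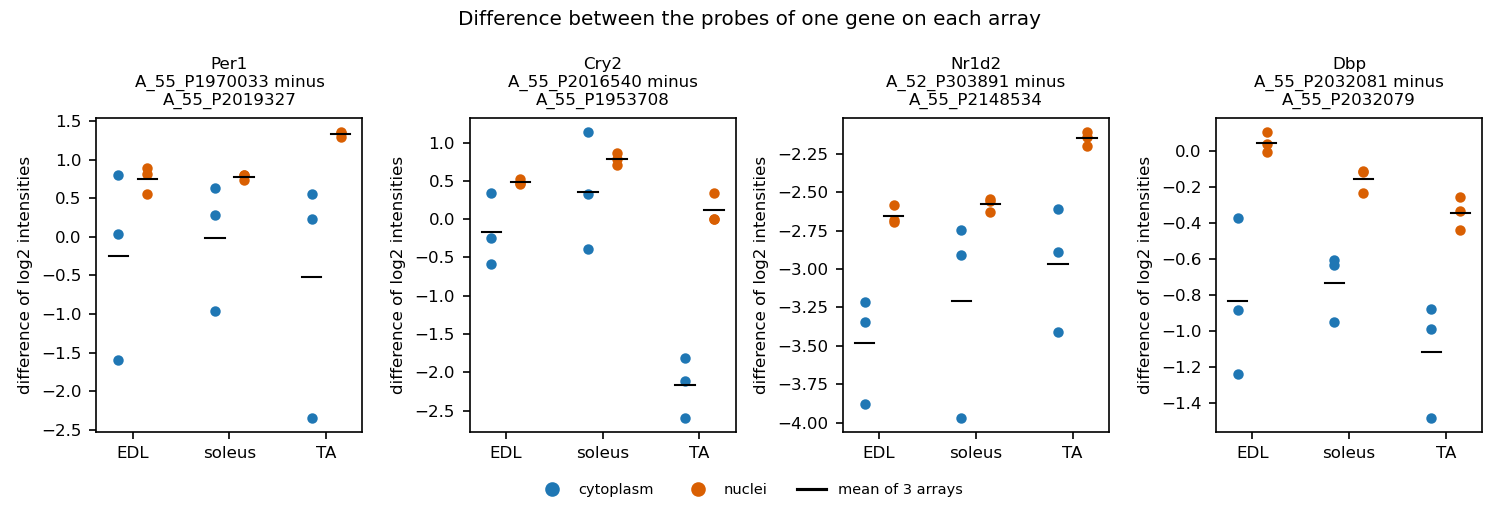
Signed difference between the log2 intensities of the 2 probes of a gene on each array, first probe minus second (y axis, ranges differ) in cytoplasm (blue) and nuclei (orange) of EDL, soleus and TA, with lines at the mean of 3 arrays. The first probe is the one with the larger nuclei minus cytoplasm difference over all muscles. The signed Dbp difference in nuclei, at -0.44 to 0.10, is higher than in the cytoplasm of the same muscle, and the signed Cry2 difference in cytoplasm is lowest in TA.

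Muscles were then compared within each fraction. Between soleus and EDL 0 of 13 clock probes passed in nuclei and 0 in cytoplasm in limma, where 1.56% and 1.42% of all probes passed, and 1 and 0 probes had an unadjusted p under 0.05. Fitted on the 6 nuclear arrays alone, 1 probe was higher and 3 lower in soleus nuclei, where 14.2% of all probes passed. TA differed more. Against EDL, 3 probes were lower in TA cytoplasm and 0 higher (all probes, 12.4% called, 7.33% lower and 5.12% higher). Against soleus, 3 were lower and 2 higher (28.6%, 12.8% and 15.8%). These comparisons share the TA arrays. In nuclei 1 probe was lower in TA than in EDL and 0 higher (17.4%, 9.81% lower and 7.59% higher), and 1 was lower than in soleus and 0 higher (19.6%, 11.9% and 7.75%).

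Nr1d1, Nr1d2 and Cry2 carried these calls, apart from a Per1 call in the cytoplasm of TA against soleus. The cytoplasm of soleus held Nr1d1 at 10.21 ± 0.41, that of EDL at 10.09 ± 0.62 and that of TA at 8.44 ± 0.48 (log2 intensity, SD, n = 3), with no overlap of TA and the others. TA minus EDL was -1.65 (SE 0.31, adjusted p = 0.00533) and TA minus soleus -1.77 (adjusted p = 0.00111). Nuclei of soleus held it at 9.43 ± 0.16, those of EDL at 9.20 ± 0.22 and those of TA at 8.38 ± 0.09 (SD, n = 3), and TA minus soleus was -1.05 (adjusted p = 0.0258). In the order of its 6 groups, from soleus cytoplasm, EDL cytoplasm, soleus nuclei and EDL nuclei down to TA cytoplasm and TA nuclei, neither soleus and EDL of a fraction nor the TA groups, neighbours in this order, differed past the threshold. Nr1d2 on A_55_P2148534 was lower in TA cytoplasm, with -1.22 against EDL (adjusted p = 0.00525) and -0.96 against soleus (adjusted p = 0.0063), and in TA nuclei, with -0.74 against EDL nuclei (adjusted p = 0.0355, and 0.0577 with the replicate block).

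Cry2 again split by probe in the muscles. On A_55_P2016540 TA cytoplasm was lower, with -1.46 against EDL (adjusted p = 0.00553) and -1.73 against soleus (adjusted p = 0.000585), while on A_55_P1953708 it was higher than soleus by 0.80 (adjusted p = 0.00482). Per1 on A_55_P2019327 was higher in TA than in soleus cytoplasm by 0.86 (adjusted p = 0.0132), a call lost without soleus cytoplasm 2 (0.71, adjusted p = 0.0544) or TA cytoplasm 2 (0.81, adjusted p = 0.0526). TA cytoplasm 1, the TA array on the slide of EDL and soleus cytoplasm, read 8.97 for Nr1d1, 8.59 for Nr1d2 (A_55_P2148534) and 6.42 for Cry2 (A_55_P2016540), below each EDL and soleus cytoplasm array. TA nuclei shared no slide with EDL or soleus nuclei, so muscle and slide cannot be told apart there. Apart from mouse 3 in nuclei and mouse 5 in cytoplasm, the TA mice were not those of EDL and soleus. With the time of day unknown, muscle, mouse and phase of the clock cannot be told apart in the TA comparisons either. Each nuclear call between muscles was lost without any 1 of the 6 nuclear arrays it compares, and with those arrays averaged 0 remained. When only the compared groups set the spread, the nuclear counts rose to 8 lower and 0 higher in TA against EDL (43.3% of all probes passed) and to 6 lower and 0 higher against soleus (45.7%), while in cytoplasm 0 passed against EDL (0.00431%) and 0 against soleus (0.629%). The interaction of muscle and fraction passed for 0 of 13 clock probes by limma's F test (1.57% of all probes), and 3 had an unadjusted p under 0.05. Each contrast of muscles within it passed for 0 of 13, where 0.0286% of all probes passed for soleus minus EDL, 0.339% for TA minus EDL and 3.33% for TA minus soleus.

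The other genes of the pathway were read from lists of loop partners, of kinases, ligases and cofactors, and of signal inputs, each gene by its probe with the highest mean. These lists too were chosen with earlier results of these data known. Of 43 listed genes 42 were on the array and 39 were tested over the 3 muscles. Of these, 27 were higher in nuclei and 3 lower, where 31.2% of all probes were higher and 38.6% lower, with a median difference of 0.73 against -0.08 over all probes. Muscle fiber markers had a median of 0.89 and endothelial markers 0.81, while macrophage and erythroid markers had -0.45 each. By list, 8 of 12 loop partners were higher and 1 lower, 12 of 16 kinases, ligases and cofactors were higher and 1 lower, and 7 of 11 signal inputs were higher and 1 lower. With the nuclear arrays averaged 13 were higher and 1 lower (39.9% of all probes called), and with slide as a random block 15 and 1 (40.1%).

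Sik1, a kinase that restrains CREB coactivators, was higher in nuclei by 2.24 (SE 0.26, adjusted p = 1.69e-06), and Hdac3, the deacetylase that REV-ERB receptors recruit, by 2.02 (adjusted p = 0.000123). Crem, a cAMP-responsive factor, was higher by 1.56 (adjusted p = 3.81e-06) and its partner coactivator Crtc1 by 1.28 (adjusted p = 0.000106). Ncor1, the corepressor that binds HDAC3, was higher by 1.34 (adjusted p = 1.37e-06), and the deacetylase Sirt1 by 1.27 (adjusted p = 9.24e-07). Lower in nuclei were Btrc, a ubiquitin ligase subunit that binds phosphorylated PER proteins, at -1.56 (adjusted p = 0.00299), Rorb, a nuclear receptor of the ROR family, at -1.41 (adjusted p = 3.05e-05), and the CREB coactivator Crtc2, at -0.34 (adjusted p = 0.00873). For Crtc2 the median over its 2 probes was 0.63, the opposite sign.

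**Figure D4:**
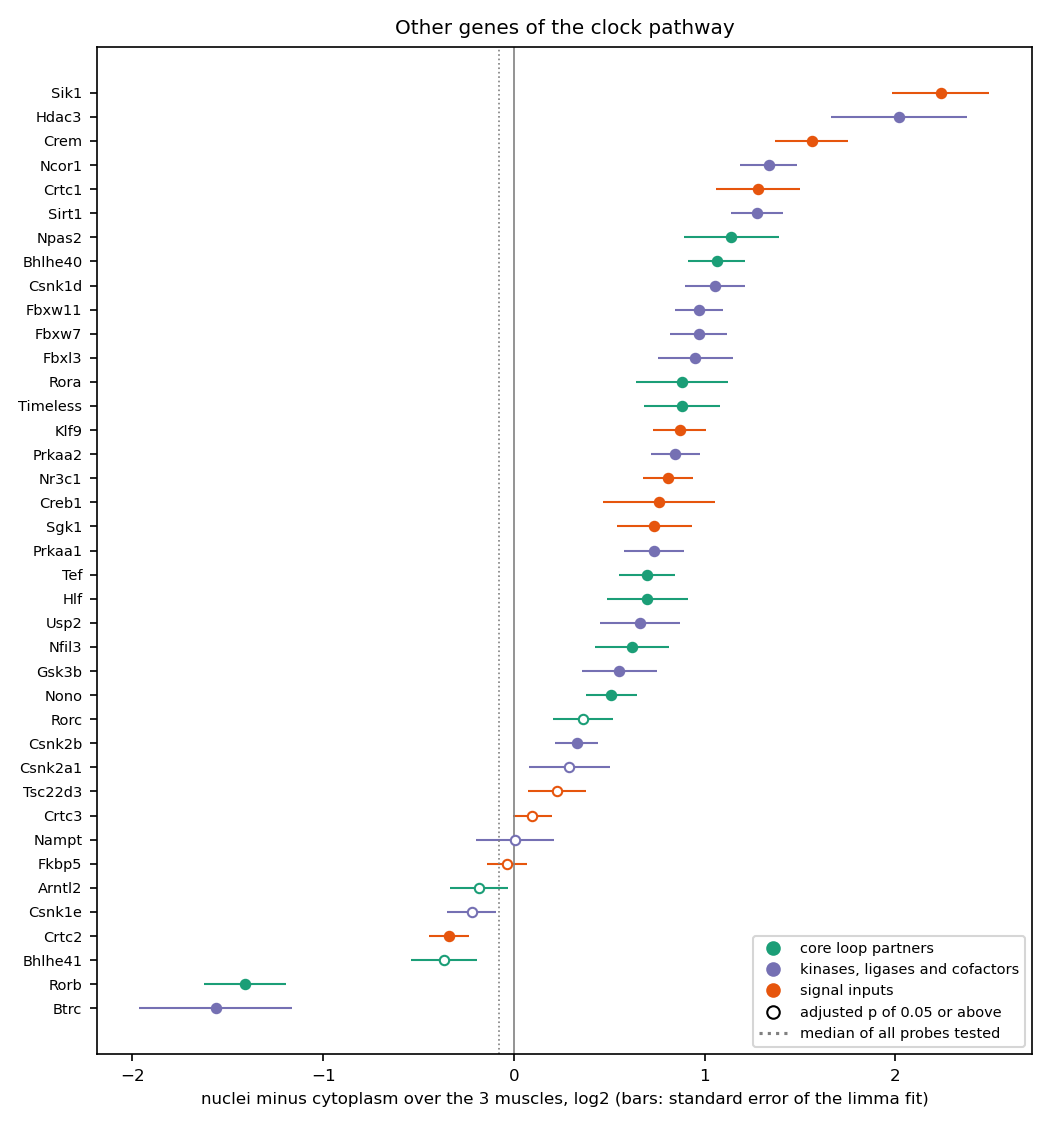
Nuclei minus cytoplasm over the 3 muscles (x axis, log2, bars are standard errors of the limma fit) for 39 other genes of the clock pathway, coloured by list, with filled symbols past an adjusted p of 0.05. The values run from -1.56 for Btrc to 2.24 for Sik1, and the dotted line is the median of all probes tested, -0.08.

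The probes most like Dbp and Arntl in pattern were sought over the 18 arrays among 22009 probes (22010 for Arntl) with a value on each array, as a description with no test, since arrays share fractions and slides. For Dbp (A_55_P2032079) the highest Pearson r was with Sly (0.86), a name of a Y-linked family in RNA of female mice, so that what this probe measured is uncertain. Next came Hlf (0.85), which encodes a factor of the same PAR bZIP family as DBP, and Qdpr (0.78). For Arntl they were Oxa1l (0.87), Zfp11 (0.84) and Bet1 (0.84).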

How the data were processed

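Agilent arrays of 1 colour measured RNA of nuclear or cytoplasmic fractions in 18 samples, grouped by the labels. Per the labels and the scanner file headers, the deposited intensity of a spot is the processed signal of Feature Extraction 10.7.3.1, corrected for background within the array and not scaled between arrays. A matrix of normalized intensity, which the authors deposited as well, has values for 3687 features and 0 of the 14 clock probes, and was not used here.

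Intensities were taken to log2. Left out were control spots (3671), outliers, and spots whose signal the software did not mark as positive and significant. After quantile normalization a model of 6 group means was fitted in R 4.3.3 (limma 3.58.1), with eBayes and Benjamini-Hochberg adjustment over all probes tested in a comparison (threshold 0.05, 2-sided). A probe needed a value on 2 of 3 arrays of each group. All adjusted p-values of single probes are of this fit unless another is named. Significance Analysis of Microarrays, the test in the study's methods, was not run, since a single limma fit also gives standard errors, muscle contrasts and the interaction. The script was tested on simulated data. Figures and the permutation test used Python 3.11.15, numpy 2.4.6 and matplotlib 3.10.9.

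Every probe of every member is reported. Pathway genes were named if they passed over the 3 muscles, up to 6 in each direction by size, and probes like Arntl and Dbp by Pearson r, 3 each. Where no array of a group was well above background, a fold is given as at least that size, over the arrays with a value, dividing the bright group's mean by a mean for the dim group in which each array stands at the probe's signal or at that array's dimmest signal well above background, whichever is higher. Such a bound concerns the dim signal only and leaves out the spread between arrays. Members and lists were chosen with earlier results of these data known.

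Replicate numbers pair EDL and soleus samples, which by the labels come from the same mice, and TA fractions only in part. Deviations of same-numbered EDL and soleus arrays from their group means correlated between -0.11 and 0.10 across 35528 probes, and between -0.09 and 0.13 for TA. TA cytoplasm 1 and 2 share mouse 5 and were kept as separate samples. The number of arrays limits the precision.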

Additional observations from a re-analysis of the deposited data

How the results depend on the processing

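Of 435 differences of single probes under settings other than leaving out an array, 366 kept their direction and side of the threshold, 67 kept the direction only, 1 passed newly and 1 turned sign, Nr1d1 over the 3 muscles at 0.18 with no scaling between arrays. When arrays were left out 1 by 1, 765 of 802 kept both and 37 the direction only.

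Counts of clock probes called moved as follows, the cause not tested unless stated. With the nuclear arrays of a muscle averaged to 1 sample, which leaves fewer samples, nuclei against cytoplasm gave 6 over the 3 muscles (12 in the report), 1 in EDL (7), 1 in soleus (8) and 2 in TA (7), TA against EDL 0 in nuclei (1) and 0 in cytoplasm (3), TA against soleus 0 in nuclei (1) and 2 in cytoplasm (5), and the pathway genes 14 (30). With slide as a random block these were 6 over the 3 muscles, 3 in EDL, 3 in soleus, 0 and 0 for TA against EDL and soleus in nuclei, and 16 pathway genes. With no scaling EDL gave 11 (51% of all probes passed), TA against EDL in nuclei 5 (29.5%), TA against soleus in nuclei 8 (48.9%) and the interaction 5. With 75th percentile scaling TA against soleus in nuclei gave 2 (22.5%). With normexp, soleus against EDL in nuclei gave 1 (2.99%), TA against EDL in nuclei 2 (21.1%), TA against soleus in nuclei 3 (23.1%) and the interaction 2. For the interaction the share of all probes under these settings was not counted. With well above background required these nuclear counts were 1, 3 and 4 (2.41%, 25.4% and 27.8%). With only the compared groups in the fit they were 4, 8 and 6, and TA cytoplasm gave 0 against EDL and 0 against soleus.

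With the replicate block TA against EDL in nuclei gave 0. The block ended the calls of Cry2 (A_55_P1953708, over the 3 muscles) and Nr1d2 (A_55_P2148534, TA against EDL in nuclei), added Dbp (A_55_P2032081, in EDL), and changed no other call of a clock probe in these comparisons.

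When arrays were left out 1 by 1, the counts ran from 10 to 12 over the 3 muscles, 6 to 9 in EDL, 7 to 10 in soleus and 6 to 7 in TA. They ran from 0 to 0 for soleus against EDL in nuclei and 0 to 1 in cytoplasm, 0 to 2 for TA against EDL in nuclei and 3 to 5 in cytoplasm, 0 to 2 for TA against soleus in nuclei and 4 to 7 in cytoplasm, 0 to 1 for the interaction and 28 to 32 for pathway genes. Slide as a fixed block coincides with fraction in EDL and soleus, so it was run for soleus against EDL only, on those 12 arrays, and gave 0 in nuclei and 0 in cytoplasm. The deposited matrix could not be used, as it holds no clock probe. Signal over background limits Arntl, Clock and Cry1 most.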

Other observations

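The cytoplasm of EDL replicate 3, from mice 7 and 8, gave the highest of the 3 EDL cytoplasm values for 11 of 12 clock probes with a value on each of these arrays, and the same array was highest for 46.2% of all probes. In soleus cytoplasm the array of the same mice was highest for 4 of 12 clock probes, against 32.1% of all probes. It was highest in both muscles for 4 clock probes, those of Dbp, Per3 and A_55_P1970033 of Per1, and for 16.8% of all probes. In nuclei 1 of 13 clock probes was highest in the arrays of these mice in both muscles, against 11.2% of all probes. These arrays were noticed after the values were seen, and no test was made.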
